A study of Rattus norvegicus with 22 samples.

Results

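The genes of translation initiation factors and of tRNA synthetases were followed in lung RNA of rats with acute pulmonary embolism (PE). Members were taken by their annotated symbol alone. These were the symbols beginning with Eif1 to Eif6, without the Eif2ak kinases, the symbols made of 1 letter followed by ars1 or ars2, and Eprs1. This gave 75 of the 14217 genes that had a probe set of their own on the array, of which 45 were initiation factors and 30 were synthetases. Of the synthetases, 17 are named for the cytosolic enzyme and 13 for the mitochondrial enzyme. Each gene is described by its brightest probe set. The members had 117 probe sets in all, and 31 members had more than 1. Eif1, Eif2s3x, Eif3e, Eif3g, Eif4e1b, Eif5, Lars2, Mars2 and Pars2 had no probe set of a single symbol and were not analysed here.

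PE was produced in anesthetized male Sprague-Dawley rats. Their weight was about 350 g by the deposited sample records, while the study's methods give a heavier range. Polystyrene spheres of 25 micron, suspended in Tween-20 at 0.01%, were given through the right jugular vein. Mild PE rats (labelled PE1.3) received 1300000 microspheres per 100 g in 0.10 ml and Severe PE rats (PE2.0) received 2000000 in 0.15 ml, while Vehicle rats received 0.15 ml of the Tween-20 solution, the volume of the Severe PE dose. At each of 2 h and 18 h there were 3 rats given Vehicle, 4 given the Mild dose and 4 given the Severe dose, all different animals, with 1 array per rat, so 22 arrays. All rats, Vehicle included, were injected in the same vein and had their lungs washed with 8 ml of saline before the tissue of the right lung was frozen, and ages were not given. The microspheres are inert plastic, and the study describes the model as without the platelet activation and thrombosis of a clot. Signals are given as log2 of the probe set's normalized signal, on which 1 unit is a 2-fold difference and 4 is the floor. Levels on this scale compare the same gene between rats and not different genes. On it the lung markers averaged 14.52 for Sftpc and 14.72 for Scgb1a1 in 18-h Severe PE, and 14.74 and 14.80 in 18-h Vehicle. On 4 arrays the 5′ end of Gapdh gave a weaker signal relative to its 3′ end than on the rest. The gap on the log2 scale was 0.64 in Vehicle rat 1 and 0.49 in Mild PE rat 4 at 18 h, and 0.35 in Vehicle rat 3 and 0.52 in Severe PE rat 1 at 2 h, beside 0.18 to 0.32 in the others.

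Initiation factors bring the small ribosomal subunit, the initiator tRNA and the messenger RNA together at the start codon. The eIF2 complex carries the initiator tRNA, and eIF2B recharges eIF2 with GTP. The eIF4 group binds the cap of the messenger RNA and unwinds it, the many-subunit eIF3 holds the small subunit, and eIF1 and eIF1A guide the scanning for the start codon. The 4E-binding proteins hold eIF4E back. A tRNA synthetase attaches one amino acid to its tRNA, and most amino acids have one enzyme for the cytosol and another for the mitochondrion. Many genes of cytosolic synthetases are known targets of ATF4, a transcription factor of the amino acid and stress response, and MYC is known to bind E-boxes at genes of initiation factors.

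At 18 h of Severe PE, genes of both classes were higher than in Vehicle, and no member was called lower. A member was called when limma gave a Benjamini-Hochberg adjusted p under 0.05, taken over all 31042 probe sets, with a difference of at least 1.5-fold. By this rule 10 of 45 initiation factors and 8 of 30 synthetases were called higher, where 4.3% of all 14217 genes were called higher and 5.61% lower, 9.91% in either direction. The 8 synthetases were all among the 17 named for the cytosolic enzyme, while none of the 13 named for the mitochondrial enzyme was called. The split follows the gene names, and where the enzymes work in the cell was not measured. The median log2 difference was 0.40 over the initiation factors, 0.79 over the cytosolic synthetases and -0.03 over the mitochondrial synthetases, beside a median over all genes of 0.00. With the adjusted p alone, 12 initiation factors and 10 synthetases were higher and 1 initiation factor, Eif3f, was lower, where 13.5% of all genes passed in either direction. Every Severe PE rat lay above every Vehicle rat in 22 initiation factors and 16 synthetases, of which 14 were cytosolic, and 14.5% of all genes did so. Every Severe PE rat lay below every Vehicle rat in 4 initiation factors and 2 synthetases, where 16.7% of all genes did so.

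**Figure D1:**
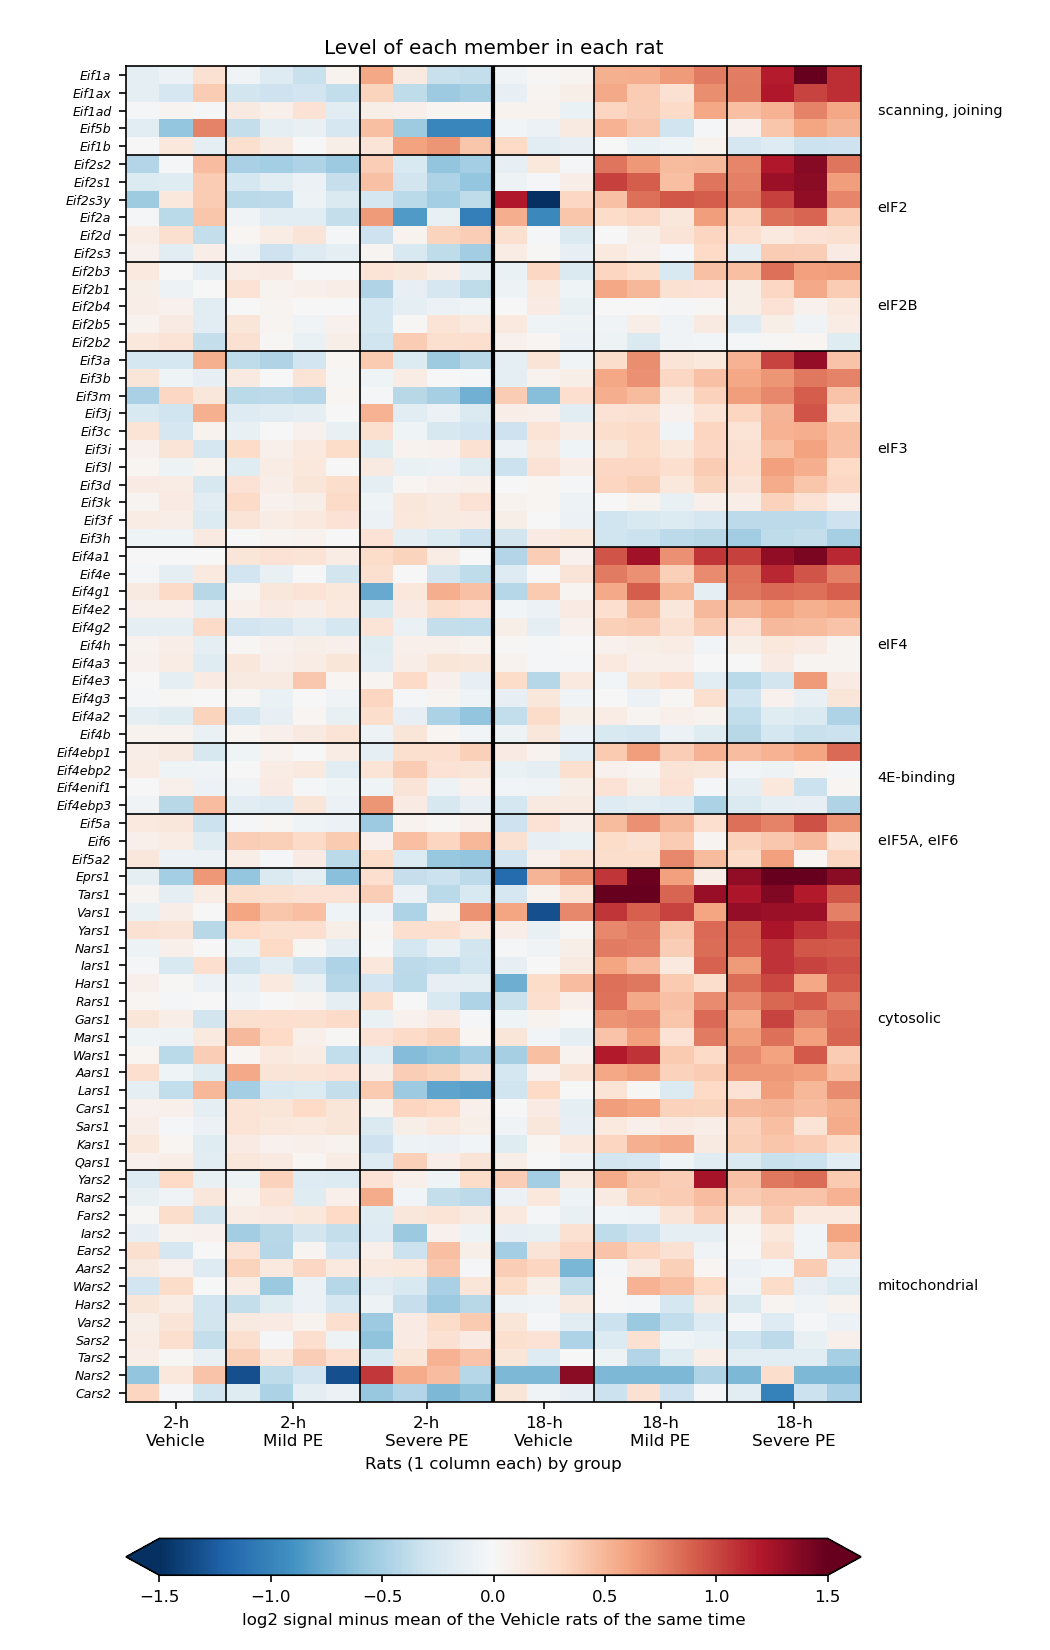
Each row is a member and each column a rat, and colour gives the log2 signal minus the mean of the Vehicle rats of the same time, with the scale ending at 1.5 in either direction. Members are grouped by role and ordered within a role by their difference in 18-h Severe PE. Most cytosolic synthetases, without Qars1, and some initiation factors are red across the 18-h PE rats. The mitochondrial synthetases and the 2-h PE rats show no common direction.

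Markers of several cell types also differed between these groups. In whole lung RNA, fewer cells of a type and less RNA per cell cannot be told apart. The summed linear signal of 6 neutrophil markers was 45853 to 64561 in 18-h Severe PE, 34230 to 50442 in Mild PE and 21425 to 27564 in Vehicle. Lcn2 was the 1 of 6 called in Severe PE, at 2.35 ± 0.51 (SE, limma, adjusted p = 0.0444). In that comparison 4.3% of all genes were called higher and 5.61% lower. The sum of 5 endothelial markers was 25065 to 30091 in Severe PE and 41032 to 42804 in Vehicle, with 0 of 5 called higher and 1, Vwf, lower. Alveolar type I markers summed to 37571 to 45103 and 52038 to 58928, T cell markers to 1480 to 2600 and 3193 to 3845, and B cell markers to 688 to 1223 and 1830 to 2267, in Severe PE and in Vehicle. Alveolar type II markers summed to 88933 to 93722 and 82848 to 90697, macrophage markers to 9399 to 12277 and 8201 to 9389, club and ciliated markers to 26237 to 28541 and 27952 to 30108, smooth muscle markers to 3284 to 6162 and 3085 to 7520, and markers of dividing cells to 335 to 421 and 227 to 384. A sum can hide markers that differ in opposite directions. Of 4 macrophage markers, 2 were above Vehicle and 2 below in 18-h Severe PE, with 0 called. Of 5 alveolar type II markers, 3 were above and 2 below, with 1 called higher and 0 lower. In the T cell list 1 of 4 was called lower, and in the B cell list 1 of 2. No marker of alveolar type I, club and ciliated, smooth muscle or dividing cells was called. None of the measured markers was at the floor in all rats. The part of these cell types in the members' differences was not tested.

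The promoters of the called synthetases are shown before their values, because a set of letters known from amino acid response genes recurred in them. The letters TGATGNAA, part of the element that ATF4 binds with a C/EBP partner, and CACGTG, the E-box of MYC and related factors, were searched on both strands in the 250 bases before the transcription start in the RefSeq promoter table (build GRCr8). An entry was found for 69 of 75 members, without Eif3h, Eif4b, Eif4e3, Eif4ebp1, Gars1 and Rars1. TGATGNAA was present in 5 of 28 synthetase promoters, 1 of 41 initiation factor promoters and 3.4% of all 33469 promoters. The 5 synthetases were Tars1, Iars1, Mars1, Aars1 and Nars1, all among the 6 called synthetases that had an entry, and the initiation factor was Eif2s2, also called. In all 6 the free letter was C. The stretches are given 5′ to 3′ in the direction of the gene, with the match in capitals, and their strand is that of the gene. In Nars1 the match began 14 bases before the start. The stretches of Tars1, Iars1, Mars1 and Eif2s2 are given.
Tars1, chr2:62114811-62114840, minus strand: ctggcgtcccgTTGCATCAgctggttagct
Iars1, chr17:15193658-15193687, minus strand: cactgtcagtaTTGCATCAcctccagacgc
Mars1, chr7:65023754-65023783, minus strand: aggcccgttccggTTGCATCAgcgtgggct
Eif2s2, chr3:163855588-163855617, minus strand: ttccctttcgcTGATGCAAgagcctagcgc

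The match began 27 bases before the start in Tars1, 24 in Iars1, 17 in Mars1 and 36 in Eif2s2. In Iars1, Mars1 and Eif2s2 the stretch lay inside the gene's annotated span in the same assembly, so another annotated transcript starts further upstream. CACGTG was present in 8 of 41 initiation factor promoters, 3 of 28 synthetase promoters and 5.59% of all promoters. The initiation factors were Eif3b, Eif4e, Eif4g1 and Eif5a, which were called, and Eif1b, Eif3f, Eif4h and Eif5a2, which were not. The synthetases were Aars1, Iars1 and Vars1. A match describes the letters only, and no binding was measured.

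Tars1, the threonine enzyme, was the most raised of the called synthetases. Its log2 signal was 8.45, 8.75 and 8.91 in the 18-h Vehicle rats, 10.25, 10.27, 9.57 and 10.01 in the Mild PE rats and 9.92, 10.09, 9.89 and 9.64 in the Severe PE rats. Both PE groups lay wholly above Vehicle and overlapped each other, and the 2-h rats ranged from 8.68 to 9.44. The log2 difference from Vehicle was 1.18 ± 0.15 (SE, limma, adjusted p = 0.0137) in Severe PE, a 2.27-fold rise. In Mild PE it was 1.32 ± 0.21 (SE, limma, adjusted p = 0.0544), just short of the threshold.

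Nars1, the asparagine enzyme, had the smallest adjusted p of any member. It read 9.95, 9.91 and 10.06 in 18-h Vehicle, 10.34 to 10.82 in Mild PE and 10.87, 11.06, 10.90 and 10.89 in Severe PE. The Severe PE rats lay above all other rats of the study, and the 18-h Vehicle rats lay below all the 2-h rats, which ranged from 10.18 to 10.75. The log2 difference was 0.96 ± 0.068 (SE, limma, adjusted p = 0.00473) in Severe PE. Yars1, the tyrosine enzyme, read 11.08, 10.87 and 11.01 in 18-h Vehicle, 11.40 to 11.84 in Mild PE and 11.89, 12.21, 12.07 and 11.96 in Severe PE, with 2-h rats from 10.33 to 11.05. Here the 18-h Vehicle rats lay within or just above the 2-h range and the Severe PE rats again above all others. The log2 difference was 1.05 ± 0.096 (SE, limma, adjusted p = 0.0074), a 2.07-fold rise.

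Iars1, the isoleucine enzyme, read 9.29, 9.40 and 9.55 in 18-h Vehicle and 10.06, 10.50, 10.43 and 10.38 in Severe PE, with Mild PE from 9.56 to 10.30. The log2 difference was 0.93 ± 0.13 (SE, limma, adjusted p = 0.016). Rars1, the arginine enzyme, read 9.59, 10.18 and 10.00 in Vehicle and 10.62, 10.78, 10.84 and 10.69 in Severe PE, with Mild PE from 10.36 to 10.74, and its log2 difference was 0.81 ± 0.15 (SE, limma, adjusted p = 0.0295). For both genes the PE rats of either dose lay above all Vehicle rats. Gars1, the glycine enzyme, read 10.99, 11.11 and 11.06 in Vehicle and 11.61, 12.07, 11.79 and 11.90 in Severe PE, with Mild PE from 11.47 to 11.90. Its log2 difference was 0.79 ± 0.11 (SE, limma, adjusted p = 0.0181). Mars1, the methionine enzyme, read 10.06, 9.84 and 9.75 in Vehicle, 10.10 to 10.67 in Mild PE and 10.51, 10.71, 10.50 and 10.76 in Severe PE, and its log2 difference was 0.74 ± 0.11 (SE, limma, adjusted p = 0.0184). The Vehicle and PE groups of these genes did not overlap at 18 h either. Aars1, the alanine enzyme, was the least raised of those called, with 11.53, 11.86 and 11.99 in Vehicle, 12.14 to 12.42 in Mild PE and 12.44, 12.44, 12.42 and 12.25 in Severe PE, and a log2 difference of 0.59 ± 0.12 (SE, limma, adjusted p = 0.0394).

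The largest difference of any synthetase was in Eprs1, which codes for a joined glutamate and proline enzyme, but it was not called. Its signal was 7.24, 8.91 and 9.05 in 18-h Vehicle, 9.48, 9.88, 9.02 and 8.51 in Mild PE and 9.73, 10.04, 9.93 and 9.76 in Severe PE. Vehicle rat 1, whose array had the widest Gapdh gap of the study, 0.64, was far below the other Vehicle rats. The log2 difference in Severe PE was 1.46 ± 0.46 (SE, limma, adjusted p = 0.112), and its size depends on that array. Vars1, the valine enzyme, read 8.77, 6.87 and 8.90 in Vehicle and 9.50, 9.47, 9.46 and 8.93 in Severe PE, a log2 difference of 1.16 ± 0.53 (SE, limma, adjusted p = 0.246), with Vehicle rat 2 low. Hars1, the histidine enzyme, read 7.85, 8.86 and 9.05 in Vehicle and 9.42, 9.59, 9.17 and 9.51 in Severe PE, a log2 difference of 0.83 ± 0.31 (SE, limma, adjusted p = 0.16). The Severe PE rats lay above all Vehicle rats in these genes, and the spread among the Vehicle rats was wide. For Hars1 the lowest was again Vehicle rat 1. The other cytosolic enzymes differed by between -0.26 for Qars1, the glutamine enzyme and the only cytosolic one below Vehicle, and 0.65 for Wars1, the tryptophan enzyme. Among them Cars1, the cysteine enzyme, passed the adjusted p with a log2 difference of 0.50 ± 0.071 (SE, limma, adjusted p = 0.0172), under 1.5-fold. This held for its brightest probe set only. Its dimmer probe sets differed by 0.588, 0.888 and 0.661 and were all called.

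The mitochondrial enzymes stayed near Vehicle as a group, with differences in 18-h Severe PE from -0.50 in Cars2 to 0.61 in Yars2. Of the 13, 6 lay above and 7 below Vehicle. Rars2, for arginine, passed the adjusted p alone with a log2 difference of 0.44 ± 0.08 (SE, limma, adjusted p = 0.0294). Yars2, for tyrosine, read 8.23, 7.35 and 7.99 in Vehicle and 8.29, 8.65, 8.69 and 8.25 in Severe PE, all Severe PE rats above all Vehicle rats, with a log2 difference of 0.61 ± 0.24 (SE, limma, adjusted p = 0.184). Nars2, for asparagine, was at the floor in most 18-h rats, so its level there is not known. The mitochondrial probe sets were dimmer than the cytosolic ones, with medians per rat from 7.30 to 7.94 beside 9.65 to 10.74.

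Among the members, 12 amino acids had both a cytosolic and a mitochondrial enzyme by symbol, with Eprs1 set beside Ears2. Fars2, for phenylalanine, was not paired, since Farsa and Farsb fall outside the symbol rule. For Nars2 the difference from Vehicle was not measured, since it was at the floor in 8 of 11 rats at 18 h, so the pair of Nars1 and Nars2 was left out of the count. By the brightest probe sets the cytosolic enzyme had the higher difference in 11 of the 11 other pairs in 18-h Severe PE and in 11 of 11 in 18-h Mild PE, and both comparisons share the Vehicle rats. The count depended on the probe set in Mild PE. Every cytosolic probe set was above every mitochondrial one in 11 pairs in Severe PE and in 8 in Mild PE, a comparison chosen after the data were seen. In Severe PE the cytosolic difference exceeded the mitochondrial one by between 0.38 for Rars1 and Rars2 and 1.43 for Tars1 and Tars2. Hars1 and Hars2, which neighbour each other in the assembly GRCr8, differed by 0.83 and -0.04 from Vehicle in Severe PE. A second, dimmer probe set of Hars2 differed by 0.74 in Severe PE and by 0.62 in Mild PE, where Hars1 differed by 0.57. This contrast of cytosolic with mitochondrial enzymes is a description over genes and was not tested.

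**Figure D2:**
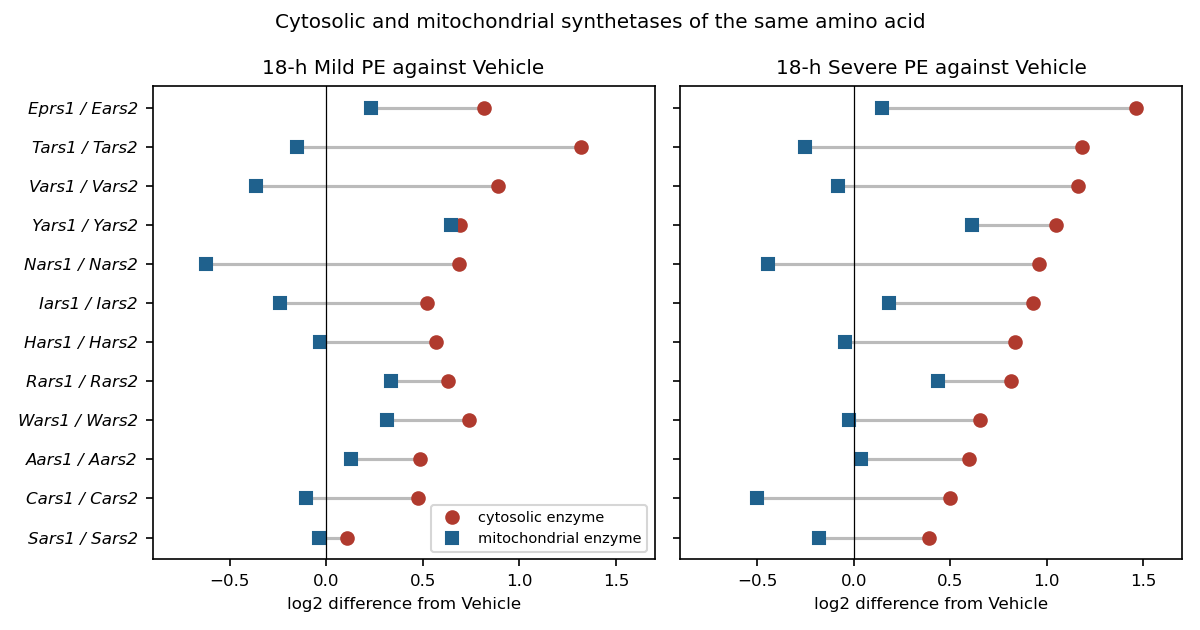
Log2 difference from 18-h Vehicle for the cytosolic (circles) and mitochondrial (squares) synthetase of each amino acid paired among the members. Mild PE is on the left and Severe PE on the right. The circle lies to the right of the square in every pair drawn, of which the Nars pair is not counted because Nars2 was at the floor in 8 of 11 rats at 18 h.

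Among the initiation factors, the scanning factor eIF1A was raised through both of its genes. Eif1a, the autosomal gene, read 8.86, 8.93 and 8.96 in 18-h Vehicle, 9.46, 9.46, 9.56 and 9.70 in Mild PE and 9.68, 10.10, 10.41 and 10.02 in Severe PE. Its log2 difference was 1.13 ± 0.17 (SE, limma, adjusted p = 0.0191) in Severe PE and 0.63 ± 0.076 (SE, limma, adjusted p = 0.0372) in Mild PE, where it was the only member called, 1 of 75. Eif1ax, the X-linked gene, read 10.18, 10.34 and 10.39 in Vehicle, 10.87, 10.69, 10.53 and 11.01 in Mild PE and 11.08, 11.51, 11.31 and 11.41 in Severe PE. The Severe PE rats lay above all Mild PE rats and these above all Vehicle rats, although the 2-h rats reached 10.33 to 11.26. The log2 difference was 1.03 ± 0.12 (SE, limma, adjusted p = 0.0109) in Severe PE. Eif1a and Eif1ax code for near-identical proteins, so part of the signal may be shared between their probe sets. Eif1ad passed the adjusted p with a log2 difference of 0.57 ± 0.086 (SE, limma, adjusted p = 0.0192), just under 1.5-fold. Eif1b, a paralog of the start codon factor eIF1, went the other way, with 10.79, 10.32 and 10.36 in Vehicle and 10.23, 10.29, 10.17 and 10.18 in Severe PE, all Severe PE rats below all Vehicle rats but not called, at -0.27 ± 0.13 (SE, limma, adjusted p = 0.253).

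Of the eIF2 complex, the alpha and beta subunits were called. Eif2s1, the alpha subunit that the eIF2 kinases phosphorylate, read 9.33, 9.37 and 9.50 in 18-h Vehicle, 10.43, 10.31, 9.85 and 10.20 in Mild PE and 10.16, 10.69, 10.75 and 10.03 in Severe PE. The PE rats of both doses lay above all Vehicle rats, and the log2 difference in Severe PE was 1.005 ± 0.21 (SE, limma, adjusted p = 0.0398). The 18-h Vehicle rats also lay below all the 2-h rats, which ranged from 9.59 to 10.61. Eif2s2, the beta subunit, read 9.49, 9.77 and 9.59 in Vehicle, 10.09 to 10.42 in Mild PE and 10.34, 10.81, 10.98 and 10.41 in Severe PE, with a log2 difference of 1.02 ± 0.18 (SE, limma, adjusted p = 0.0284) and 2-h rats from 9.75 to 10.80. The gamma subunit gene Eif2s3 differed by 0.19 ± 0.15 (SE, limma, adjusted p = 0.508), and its Y-linked copy Eif2s3y by 0.97 ± 0.64 (SE, limma, adjusted p = 0.422). Eif2s3y read 8.96, 6.24 and 8.06 in Vehicle, so its mean there was set by the low rat 2. The other initiator tRNA carriers, Eif2a and Eif2d, differed by 0.60 and 0.21 and were not called.

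The 5 genes of eIF2B, the exchange factor, were not called in the fit of the pair of groups. Their log2 differences in 18-h Severe PE were 0.63 for Eif2b3, 0.34 for Eif2b1, 0.13 for Eif2b4, -0.01 for Eif2b5 and -0.04 for Eif2b2. Only Eif2b3 had all Severe PE rats (9.13 to 9.51) above all Vehicle rats (8.47 to 8.99), with an adjusted p of 0.0616 by limma, and it was called in the fit of all 22 arrays and without Vehicle rat 2. Eif2b1 read 9.71, 10.04, 9.92 and 9.78 at 2 h of Severe PE and 10.25, 10.09 and 10.16 in 2-h Vehicle, all Severe PE rats below, at a log2 difference of -0.30 ± 0.094 (SE, limma, adjusted p = 0.506).

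In the eIF4 group, the cap-binding protein, its scaffold and its helicase were called together. Eif4a1, the helicase, had the largest difference of the initiation factors. It read 11.31, 12.12 and 11.81 in 18-h Vehicle, 12.69, 13.00, 12.43 and 12.82 in Mild PE and 12.77, 13.07, 13.16 and 12.88 in Severe PE. Both PE groups lay above all Vehicle rats. The lowest Vehicle value was in rat 1, an array with weak 5′ signal, and the difference in Severe PE ran from 1.01 to 1.41 over the alternative runs. The log2 difference was 1.22 ± 0.21 (SE, limma, adjusted p = 0.0256) in Severe PE and 0.99 ± 0.23 (SE, limma, adjusted p = 0.0973) in Mild PE, where it was not called. Eif4a2, the close paralog of Eif4a1, read 11.77, 12.41 and 12.22 in Vehicle, 12.17 to 12.25 in Mild PE and 11.76, 11.95, 11.92 and 11.67 in Severe PE, with a log2 difference of -0.31 ± 0.17 (SE, limma, adjusted p = 0.325). Every Severe PE rat was below every Mild PE rat for Eif4a2, at -0.38 ± 0.07 (SE, limma, adjusted p = 0.115). Eif4a3, a paralog of the exon junction complex, differed by 0.05 from Vehicle.

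Eif4e, the cap-binding protein, read 10.25, 10.44 and 10.63 in 18-h Vehicle, 10.80 to 11.21 in Mild PE and 11.25, 11.57, 11.38 and 11.20 in Severe PE, with a log2 difference of 0.91 ± 0.13 (SE, limma, adjusted p = 0.0172). Its 18-h Vehicle mean was 10.44 beside 10.94 in 2-h Vehicle. Eif4g1, the scaffold, read 10.35, 11.16 and 10.82 in Vehicle, 11.35, 11.69, 11.28 and 10.64 in Mild PE and 11.57, 11.63, 11.60 and 11.67 in Severe PE. The Severe PE rats were close together and above Vehicle, and the log2 difference of 0.84 ± 0.19 (SE, limma, adjusted p = 0.0495) was at the edge of the threshold. Eif4e2 passed the adjusted p at 0.56 ± 0.067 (SE, limma, adjusted p = 0.0119) but was under 1.5-fold. Eif4b, a helper of the helicase, was below Vehicle in all Severe PE rats, at -0.33 ± 0.082 (SE, limma, adjusted p = 0.0625). The others of the group, Eif4e3, Eif4g2, Eif4g3 and Eif4h, differed by -0.04 to 0.40.

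Eif4ebp1, an inhibitor that binds eIF4E, was called as well. It read 10.45, 10.39 and 10.16 in 18-h Vehicle, 10.72, 10.97, 10.70 and 10.85 in Mild PE and 10.80, 10.85, 10.92 and 11.18 in Severe PE, both PE groups above all Vehicle rats. The log2 difference in Severe PE was 0.61 ± 0.12 (SE, limma, adjusted p = 0.0366). Its relatives Eif4ebp2 and Eif4ebp3 differed by -0.02 and -0.23, and the transporter gene Eif4enif1 by -0.07. Eif5a, a factor of elongation despite its name, read 12.32, 12.86 and 12.73 in Vehicle, 12.89 to 13.33 in Mild PE and 13.46, 13.38, 13.60 and 13.31 in Severe PE, with a log2 difference of 0.80 ± 0.15 (SE, limma, adjusted p = 0.0295). Eif5a2, its paralog, was dim and differed by 0.32 ± 0.18 (SE, limma, adjusted p = 0.343), and Eif6, which keeps the large subunit apart, by 0.36 ± 0.11 (SE, limma, adjusted p = 0.115).

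Of the 11 measured eIF3 subunits, 1 was called. Eif3b, a core subunit, read 11.20, 11.38 and 11.42 in 18-h Vehicle, 11.65 to 12.02 in Mild PE and 11.91, 11.99, 12.12 and 12.08 in Severe PE, with a log2 difference of 0.70 ± 0.082 (SE, limma, adjusted p = 0.0115). The subunits did not move as one. Eif3a, Eif3d, Eif3i, Eif3j, Eif3k, Eif3l and Eif3m also had all Severe PE rats above all Vehicle rats, with differences from 0.18 to 0.82. By these brightest probe sets none of them was called. A second, dimmer probe set of Eif3j differed by 1.045 and was called (limma, adjusted p = 0.0191). Eif3f and Eif3h, which contact each other in the complex, lay below instead. Eif3f read 13.97, 13.88 and 13.79 in Vehicle, 13.58 to 13.67 in Mild PE and 13.49, 13.49, 13.49 and 13.57 in Severe PE, a fall at the adjusted p alone of -0.37 ± 0.059 (SE, limma, adjusted p = 0.0219). Eif3h read 12.46, 12.86 and 12.90 in Vehicle and 12.21, 12.36, 12.38 and 12.24 in Severe PE, at -0.44 ± 0.12 (SE, limma, adjusted p = 0.0854), the lowest of the initiation factors.

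**Figure D3:**
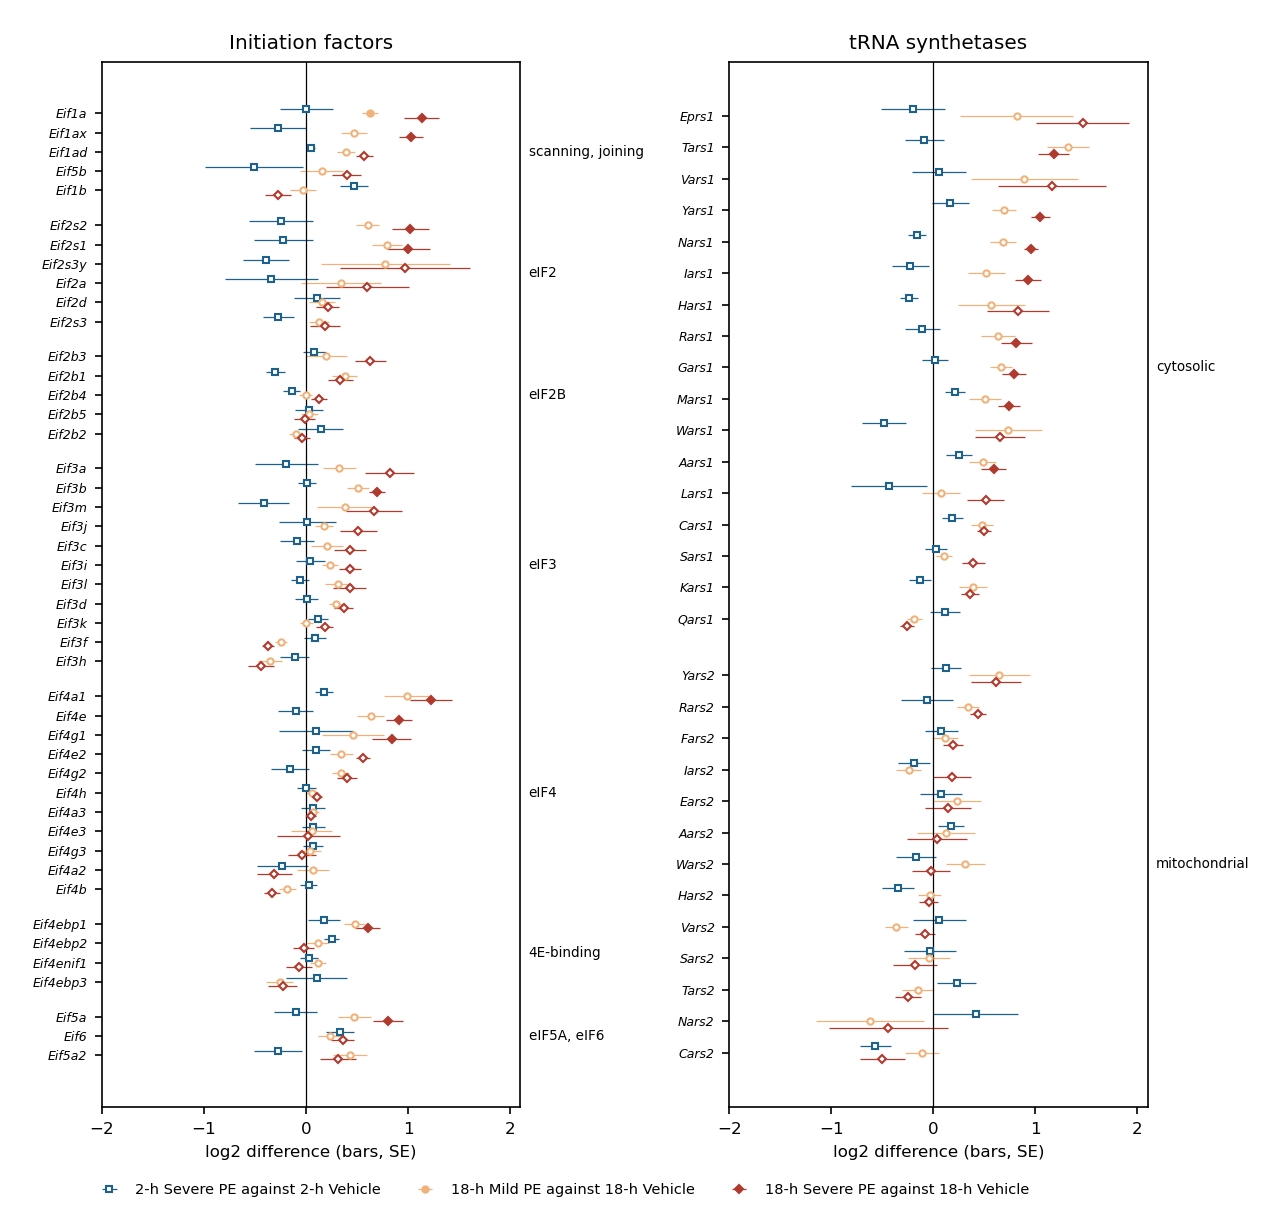
Log2 difference from the Vehicle group of the same time (bars, SE) for every member, grouped by role, in 2-h Severe PE (squares), 18-h Mild PE (circles) and 18-h Severe PE (diamonds), filled where called. The filled diamonds lie among the initiation factors of several roles and among the cytosolic synthetases, and the only filled circle is Eif1a.

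The calls depended on single arrays. Each of the 7 arrays of 18-h Severe PE and Vehicle was left out in turn. This left 3 to 7 initiation factors and 4 to 7 synthetases called. Calls over all genes were not counted in these runs, so the counts have no background beside them. Eif1ax, Eif3b, Nars1, Tars1 and Yars1, 5 of the 18, were called each time. Of the 18, 12 were still called without Vehicle rat 1, 10 without Vehicle rat 2, 7 without Vehicle rat 3, and 12, 8, 9 and 12 without Severe PE rats 1 to 4. Of the arrays with weak 5′ signal only Vehicle rat 1 enters this comparison, and without it 14 members were called, the 12 above with Eprs1 and Eif1ad. In 1 fit of all 22 arrays, which shares 1 estimate of the spread, 12 initiation factors and 11 synthetases were called, where 16% of all genes were. These were the 18 with Eif2b3, Eif3a, Eprs1, Hars1 and Vars1. Of 11 further probe sets of the called members, 5 had a mean log2 signal of at least 7. All 5 were higher in 18-h Severe PE and 2 were called.

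**Figure D4:**
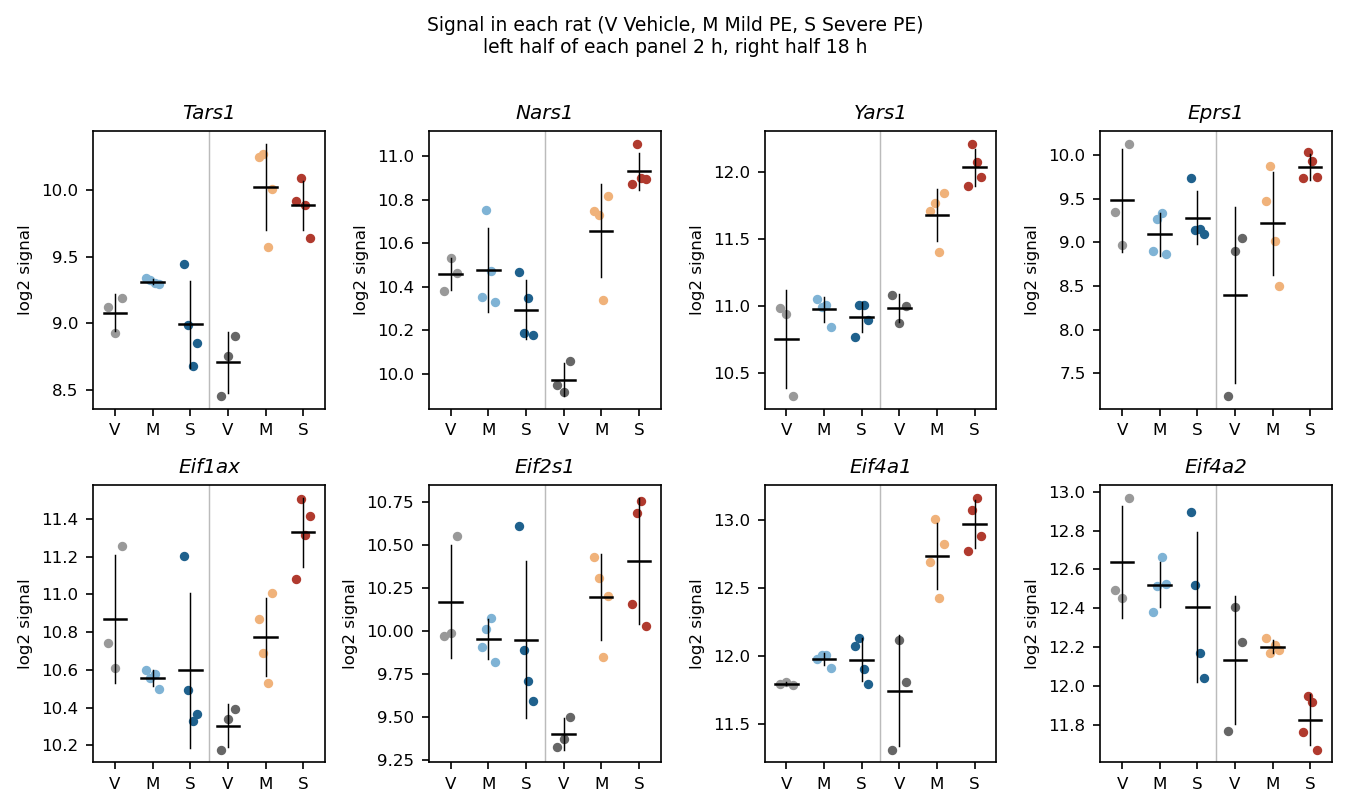
Log2 signal of 8 members in each rat, with the group mean (horizontal line) and SD (vertical line), for Vehicle (V), Mild PE (M) and Severe PE (S) at 2 h on the left and 18 h on the right of each panel. The 18-h PE rats lie above the 18-h Vehicle rats in Tars1, Nars1, Yars1, Eif1ax, Eif2s1 and Eif4a1, while the mean of Eif4a2 is lowest in 18-h Severe PE and 1 Vehicle rat is low in Eprs1.

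In 18-h Mild PE few members passed. Only Eif1a was called, 1 of 45 initiation factors and 0 of 30 synthetases, where 1.43% of all genes were called. At an unadjusted p under 0.05, 18 initiation factors and 13 synthetases passed, where 24.6% of all genes did, and the methods' t-test called none in either class, where it called 0.204% of all genes. In the fit of all 22 arrays 3 initiation factors and 5 synthetases were called, where 6.74% of all genes were. The median log2 difference was 0.23 over the initiation factors, 0.57 over the cytosolic synthetases and -0.03 over the mitochondrial ones. All Mild PE rats lay above all Vehicle rats in 17 initiation factors and 10 synthetases, where 10.2% of all genes did, and below in 2 and 2, where 12.1% did. Both doses were compared with the same 3 Vehicle rats.

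Between Severe and Mild PE at 18 h, 0 members were called by limma and 0 of all genes (0%). At an unadjusted p under 0.05, 12 initiation factors and 7 synthetases passed, where 17.3% of all genes did. The methods' t-test called no member, nor did the fit of all 22 arrays, where 1.48% of all genes were called. Eif4a2 had the smallest adjusted p, given above. Eif1ax was higher in all Severe PE rats than in all Mild PE rats, at 0.56 ± 0.13 (SE, limma, adjusted p = 0.161), and Sars1, the serine enzyme, at 0.28 ± 0.077 (SE, limma, adjusted p = 0.195). The largest difference upward was in Eprs1, at 0.65 ± 0.29 (SE, limma, adjusted p = 0.384).

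At 2 h no member was called at either dose by limma, by the methods' t-test or in the fit of all 22 arrays, which called 0.633% of all genes in Mild PE, 0.9% in Severe PE and 0.767% between the doses. In 2-h Mild PE 0 of 75 were called where 0.429% of all genes were, and 2 initiation factors and 5 synthetases had an unadjusted p under 0.05, as did 15.5% of all genes. In 2-h Severe PE 0 of 75 were called where 0.0422% of all genes were, and 4 initiation factors and 2 synthetases had an unadjusted p under 0.05, as did 8.45% of all genes. Between the doses 0 of 75 were called where 0.549% of all genes were, with 5 and 5 at an unadjusted p under 0.05, as were 13.9% of all genes. The medians at 2 h were 0.02 and 0.01 over the initiation factors and 0.06 and -0.01 over the synthetases, in Mild and in Severe PE.

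The members that differed most at 2 h were not called. In Mild PE the largest rises were Eif6 at 0.35 ± 0.08 (SE, limma, adjusted p = 0.175) and Vars1 at 0.35 ± 0.17 (SE, limma, adjusted p = 0.442), and the largest measured falls were Eif2s2 at -0.50 ± 0.20 (SE, limma, adjusted p = 0.382) and Iars2 at -0.40 ± 0.077 (SE, limma, adjusted p = 0.135). Nars2 was at the floor in 2 of the 4 Mild PE rats and was not ranked. In Severe PE the largest rise among the initiation factors was Eif1b, which read 10.04, 10.20 and 9.90 in Vehicle and 10.24, 10.65, 10.71 and 10.47 in Severe PE without overlap, at 0.47 ± 0.14 (SE, limma, adjusted p = 0.472). The largest fall was Eif5b, a subunit joining factor, at -0.51 ± 0.48 (SE, limma, adjusted p = 0.868). Among the synthetases the extremes were Nars2 at 0.41 ± 0.41 (SE, limma, adjusted p = 0.879) and Cars2, which read 8.31, 7.95 and 7.69 in Vehicle and 7.42, 7.55, 7.32 and 7.38 in Severe PE, at -0.57 ± 0.15 (SE, limma, adjusted p = 0.422). In the 18-h comparisons the largest measured falls were Eif3h and, among the synthetases and without Nars2, Vars2 in Mild PE at -0.36 ± 0.12 (SE, limma, adjusted p = 0.178) and Cars2 in Severe PE at -0.50 ± 0.22 (SE, limma, adjusted p = 0.227).

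The effect of Severe PE differed between 18 h and 2 h for 17 members. The difference of the effects was taken from the fit of all 22 arrays. It was called for 9 initiation factors and 7 synthetases in the positive direction and for Eif1b in the negative, where 8.22% of all genes were called. Without 2-h Vehicle rat 3, 7 initiation factors were called in either direction, and without 2-h Severe PE rat 1, 14 were. Both of these arrays had weak 5′ signal, and calls over all genes were not counted in these runs. The largest among the called were Eif1ax at 1.30 ± 0.26 (SE, limma, adjusted p = 0.0074), Tars1 at 1.27 ± 0.25 (adjusted p = 0.00603), Eif2s2 at 1.27 ± 0.31 (adjusted p = 0.0205) and Eif2s1 at 1.23 ± 0.32 (adjusted p = 0.0292). Eprs1, at 1.66 ± 0.54 (limma, adjusted p = 0.0773), and Eif2s3y, at 1.36 ± 0.57 (limma, adjusted p = 0.18), had larger differences of the effects and were not called. Nars1 had the smallest adjusted p, at 1.12 ± 0.16 (limma, adjusted p = 8.68e-04). For Mild PE 0 members were called by limma, where 1.13% of all genes were, and 14 initiation factors and 10 synthetases passed an unadjusted p under 0.05, as did 18% of all genes. The closest was Tars1, at 1.09 ± 0.25 (limma, adjusted p = 0.0507).

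The Vehicle groups of both times enter these differences. Between 18-h and 2-h Vehicle 0 members were called by limma and by the methods' t-test, and 0 of all genes (0%), while 14 initiation factors and 5 synthetases had an unadjusted p under 0.05, as did 20.3% of all genes. The fit of all 22 arrays called 1 synthetase, Tars2, at 18 h above 2 h, where 3.47% of all genes were called. The 18-h Vehicle rats lay below the 2-h Vehicle rats in Eif2s1, at -0.77 ± 0.18 (SE, limma, adjusted p = 0.231), in Eif4e, at -0.50 ± 0.13 (SE, limma, adjusted p = 0.242), and in Nars1, at -0.49 ± 0.068 (SE, limma, adjusted p = 0.17). Tars2 differed the other way, from 8.39 to 8.60 in 2-h Vehicle to 9.21 to 9.59 in 18-h Vehicle, at 0.90 ± 0.12 (SE, limma, adjusted p = 0.165). In the 2-way model 12 initiation factors and 13 synthetases were called for time, where 22.6% of all genes were, 8 and 8 for dose, where 13.7% were, and 5 and 6 for their interaction, where 5.36% were. The 6 synthetases called for the interaction were all cytosolic.

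Other genes of the translation machinery were compared in 18-h Severe PE against Vehicle in the same way, where 4.3% of all genes were called higher and 5.61% lower. Of 11 other synthetase genes and synthetase partners 2 were called higher and 0 lower, with a median log2 difference of 0.33. These were Aimp2, a scaffold of the multi-synthetase complex, at 0.69 ± 0.10 (SE, limma, adjusted p = 0.0198), and Eef1e1, another of its scaffolds, at 0.72 ± 0.15 (SE, limma, adjusted p = 0.0408). Of 9 elongation and termination factors 2 were called higher, the release factor Etf1 at 1.22 ± 0.18 (SE, limma, adjusted p = 0.0195) and the ribosome recycling factor Abce1 at 1.16 ± 0.20 (SE, limma, adjusted p = 0.0265), with a median of 0.16. Of 45 cytosolic ribosomal proteins 1, Rpl4, was called higher at 0.84 ± 0.17 (SE, limma, adjusted p = 0.0385), and the median was 0.05.

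In the same comparison, of 16 measured regulators of initiation, 0 were called higher and 2 lower, with a median of 0.13. These were Mknk2, a kinase of eIF4E, at -0.63 ± 0.12 (SE, limma, adjusted p = 0.036), and Eef2k, the kinase of the elongation factor eEF2, at -0.74 ± 0.15 (SE, limma, adjusted p = 0.0366). Eif2ak1, a kinase of eIF2 alpha, was lower at the adjusted p alone, at -0.42 ± 0.053 (SE, limma, adjusted p = 0.0137), and Ppp1r15a, which returns the phosphatase to eIF2 alpha, was higher at 0.50 ± 0.10 (SE, limma, adjusted p = 0.0391). Ppp1r15a was called at 2 h of Mild PE, at 1.12 ± 0.08 (SE, limma, adjusted p = 0.0204), where 0.429% of all genes were called. It was the only call of this list at 2 h, and differed by 0.97 ± 0.14 (SE, limma, adjusted p = 0.157) in 2-h Severe PE. Of ATF4 and 14 genes it is known to switch on, 4 were called higher and 0 lower in 18-h Severe PE, with a median of 0.53, where 4.3% of all genes were called higher. In 18-h Mild PE, Slc7a5 at 1.47 ± 0.19 (SE, limma, adjusted p = 0.0391) and Shmt2 at 0.84 ± 0.11 (SE, limma, adjusted p = 0.042) were called. This was 2 of 15, with a median of 0.21, where 1.43% of all genes were called. The 4 in Severe PE were the amino acid transporter Slc7a5 at 1.77 ± 0.18 (SE, limma, adjusted p = 0.00923), the stress gene Nupr1 at 1.42 ± 0.28 (SE, limma, adjusted p = 0.0344), the folate enzyme Shmt2 at 1.29 ± 0.13 (SE, limma, adjusted p = 0.00843) and the serine enzyme Psat1 at 0.76 ± 0.16 (SE, limma, adjusted p = 0.0439). Asns, asparagine synthetase, passed the adjusted p at 0.56 ± 0.08 (SE, limma, adjusted p = 0.0172), while Atf4 itself differed by 0.29 ± 0.089 (SE, limma, adjusted p = 0.11). Of 5 interferon gamma response genes, measured because Wars1 is also one, 1 was called, Cxcl9 at 1.12 ± 0.24 (SE, limma, adjusted p = 0.0452).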

How the data were processed

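RNA of the right lung of 22 rats was hybridised to Affymetrix Rat Genome 230 2.0 arrays, 1 per rat, and groups were taken from the sample labels, which name separate rats. The authors deposited 1 intensity per probe set and array for 31099 probe sets, on a linear scale. The 2% trimmed mean of each array lay between 500.15 and 500.18, so the deposited intensities had been scaled to a common mean. The study's methods describe GC-RMA values on the log2 scale in GeneSifter, which these values are not, and the software that made them is not given in the sources used here. Intensities were floored at 16, which touched 13.6 to 17.3% of values per array, taken to log2 and quantile normalized. The number of arrays limits the precision. The 57 control probe sets were left out. Of the 31042 others, 20826 had 1 gene symbol in the platform annotation, 436 several and 9780 none, and 20758 of the first matched RefSeq by gene ID.

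Each pair of groups was fitted alone with lmFit and eBayes of limma 3.58.1 in R 4.3.3. The 2-way model and the differences of effects between times were fitted on all 22 arrays. P-values were adjusted by Benjamini-Hochberg over all probe sets, and a gene was called at an adjusted p under 0.05 with at least 1.5-fold. The fits were tested on simulated data. Figures were drawn with matplotlib 3.10.9.

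The members and the gene lists were chosen with earlier results of these data known, and the role of Eif1a was assigned after the lists were written. Values in each rat were given for called members (at most 12 per class), for the eIF2, eIF2B and 4E-binding families and for paralogs, and the largest rise and fall of each class. From the other lists, up to 4 genes of smallest adjusted p were named. Members and genes named beyond this, such as Eif3f, Eif3h, Eif4b, Hars1 and Atf4, were chosen after their values were seen. The alternatives were other floors, normalizations, filters, summaries per gene, tests and sets of arrays. Some items are not reported here.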

Additional observations from a re-analysis of the deposited data

Results flagged for a closer look

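The effect of Severe PE differed between 18 h and 2 h, by the test of that difference in the fit of all 22 arrays, for 17 members. On the log2 scale the difference of effects was 1.13 for Eif1a, 1.30 for Eif1ax, 0.64 for Eif2b1, 1.225 for Eif2s1, 1.265 for Eif2s2, 0.69 for Eif3b, 1.05 for Eif4a1, 1.01 for Eif4e and 0.90 for Eif5a among the initiation factors that had the higher effect at 18 h. Among the synthetases it was 0.775 for Gars1, 1.07 for Hars1, 1.15 for Iars1, 1.12 for Nars1, 0.92 for Rars1, 1.27 for Tars1 and 0.88 for Yars1. Eif1b had the lower effect at 18 h, with a difference of -0.74.

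Single rats stood apart in 10 of 160 groups of 4 rats, over the 40 members examined. Chance flags about 1 in 20 groups. The log2 signal of Aars1 was 12.082 in 2-h Mild PE rat 1, above 11.703 to 11.73 in the others, and 12.247 in 18-h Severe PE rat 4, below 12.424 to 12.441. Nars1 was 11.057 in 18-h Severe PE rat 2, above 10.874 to 10.899. Vars1 was 8.933 in 18-h Severe PE rat 4, below 9.462 to 9.502. Eif4ebp2 was 11.495 in 2-h Severe PE rat 2, above 11.318 to 11.341. Nars2 was 4.224 in 18-h Mild PE rat 4 and 4.94 in 18-h Severe PE rat 2, where the others were at the floor. Of the arrays with weak 5′ signal, 2-h Severe PE rat 1 had Eif5a at 12.271, below 12.84 to 12.882, and Eprs1 at 9.736, above 9.094 to 9.157. The array of 18-h Mild PE rat 4, also one of these, had Eif4ebp3 at 8.975, below 9.245 to 9.276.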

How the results depend on the processing

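No member called in 18-h Severe PE, in 18-h Mild PE or for the difference of the Severe PE effects changed direction under an alternative run. Class medians near 0 did turn sign. With 1 array left out the initiation factors' median ran from -0.083 to 0.037 in 18-h against 2-h Vehicle, -0.008 to 0.059 in 2-h Mild PE and -0.031 to 0.036 in 2-h Severe PE, and the synthetases' from -0.032 to 0.116 in 18-h against 2-h Vehicle and -0.049 to 0.066 in 2-h Severe PE. With 3 or 4 arrays per group the counts of calls moved more than the medians did, and the cause was not tested. In 18-h Severe PE against Vehicle the methods' t-test called 4 initiation factors and 6 synthetases, all cytosolic, where it called 828 of all 14217 genes. Among the alternatives, calls over all genes were counted only for this test, the fit of all 22 arrays, the adjusted p alone and the replicate block. In 18-h Mild PE the initiation factors called were 3 in 1 fit on all 22 arrays, 5 with dim probe sets left out, 2 with the mean of all probe sets of a gene, and 0 on leaving out the 4 arrays with weak 5′ signal, with median centring and by the methods' t-test. The synthetases called there were 5, 4 and 4 under the first 3 of these and 2 with a trend in eBayes. For the difference of the Mild PE effects, 1 initiation factor and 2 synthetases were called with dim probe sets left out, and 1 synthetase each with a trend, with gene means and with no further normalization. In 18-h against 2-h Vehicle 1 synthetase was called in the fit of all 22 arrays. In the 2-way model median centring gave 5 initiation factors for dose, 22 for time and 3 for interaction, and 3 synthetases for interaction, while interaction gave 8 initiation factors with dim probe sets left out and 9 with gene means. Median centring also moved the initiation factors' median from -0.025 to 0.168 in 18-h against 2-h Vehicle, where it moved the median of all genes from 0.062 to 0.19, and to 0.141 for the difference of the Mild PE effects.

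With 1 array left out at a time, 3 to 7 initiation factors and 4 to 7 synthetases were called in 18-h Severe PE, with the lowest counts without Severe PE rat 2 and without Vehicle rat 3. In 18-h Mild PE these were 0 to 1 and 0 to 4. For the difference of the Severe PE effects they were 7 to 14 and 6 to 11, and for Mild PE 0 to 2 and 0 to 3, with a median of the initiation factors from 0.133 to 0.306. In the 2-way model the initiation factors ranged from 5 to 9 for dose and 1 to 8 for interaction. The synthetases ranged from 2 to 8 for interaction. Calls over all genes were not counted in any of these runs.

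The replicate numbers did not pair the rats. The deviations of same-numbered rats correlated between -0.273 and 0.123, with a median of -0.014. With the replicate block, 0 initiation factors and 0 synthetases were called in 18-h Severe PE and 0 and 0 in 18-h Mild PE, with 2 residual degrees of freedom. In 18-h Severe PE 0 of all genes passed with this block, with a smallest adjusted p of 0.114 by limma.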
